A study of Mus musculus with 2 samples.

Results

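The 43 genes described here belong to the machinery by which a cell copies its DNA and divides. They were taken by symbol from the gene table of both libraries, and all 43 were found among the 55357 genes listed. The first 20 are S-phase genes, which encode proteins of DNA replication, and the other 23 are G2/M genes, which encode proteins of chromosome condensation, spindle assembly and mitosis. The rule that named the members used no measured value, but they were chosen with earlier results of these data known. Raw unique molecular identifiers (UMIs, each standing for 1 captured RNA molecule) were counted for each gene in each cell, and the question was how the 2 phases were balanced between the cell classes of an inflamed colon.

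A cell passes from growth (G1) into DNA synthesis (S), then through a second growth phase (G2) into mitosis (M). E2F transcription factors switch on the S-phase genes once the retinoblastoma brake is lifted. The B-MYB and FOXM1 complexes switch on the G2/M genes later in the same cycle, and the DREAM complex represses them before that. In the healthy colon, division is largely held to the crypt base, and in an inflamed one activated lymphocytes and newly formed plasmablasts divide in the tissue as well, while neutrophils arrive already past their last division.

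The tissue was the middle part of the colon from 7-week-old mice kept free of specific pathogens, which had received 3% dextran sulphate sodium (DSS, a detergent-like polymer that injures the colonic epithelium and causes colitis) for 6 days. The 2 libraries of all cells, repeats 1 and 2, were made with a 10x Genomics 3′ kit. Both came from treated mice, so no untreated sample was compared, and the strain, the sex and the number of mice behind each library were not given in the sources used here. Nothing in the labels says that the repeats came from separate mice, so the p-values measure only the spread between these libraries, which may be technical.

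After filters, 5419 cells remained in library 1 and 8425 in library 2, with medians of 7925 and 6462 UMIs. The members held 87046 of the UMIs kept in library 1 and 144388 in library 2, which is 0.129% and 0.175% of all UMIs kept. Cells were clustered without the members, without other cell cycle and histone genes, and named from marker genes, so each name below means cells with the markers of that type. The 9 classes, with cells in library 1 and library 2, were lymphoid (T, NK and innate lymphoid, 1672 and 2542), phagocyte (851 and 2684), epithelial (1840 and 1211), neutrophil (440 and 931), B (144 and 293), stromal (125 and 237), endothelial (66 and 136), plasma (65 and 102) and mast (33 and 41). In each class its own marker list summed higher than any other list, but other lists were present. The 10 neutrophil markers summed to 335385 and 307280 CPM (UMIs scaled to the same total in every class and library) in neutrophils and to between 407 and 6344 CPM elsewhere. Phagocytes held 6344 and 4862 CPM of them beside 10306 and 11520 CPM of their own markers, and B cells 1086 and 1684 CPM beside 4233 and 4047 CPM of their own. The part of these in the results was not tested. Epithelial markers, found at 18815 and 20179 CPM in epithelial cells, lay between 525 and 1715 CPM in the other classes. The 2 libraries shared 18 cell barcodes. Cells removed as likely doublets (2 cells under 1 barcode) held at least 2 G2/M UMIs in 41.1% and 45.3% of cases, against 26.2% and 33.7% of the cells kept; whether part of them were dividing cells was not tested.

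The promoters of the 2 phases' genes differed in the short elements they held. RefSeq gave a promoter on the GRCm38.p6 build, 250 bases before to 50 after the gene start, for 36 members (17 S-phase and 19 G2/M). These were searched on both strands for the E2F element TTTNNCGC, the CHR element (cell cycle genes homology region, bound by DREAM) as TTTGAA or TTCGAA, and the CCAAT box bound by NF-Y. The E2F word and TTTGAA cannot match from the same base, though words can overlap on opposite strands. An E2F element lay in 9 of 17 S-phase promoters (52.9%), in 1 of 19 G2/M promoters (5.26%) and in 5.27% of all 27025 promoters of the table. A CHR element together with a CCAAT box lay in 2 of 17 S-phase promoters (11.8%), in 14 of 19 G2/M promoters (73.7%) and in 7.70% of all promoters. The CCAAT box taken alone was common in both, in 10 of 17 S-phase (58.8%) and 16 of 19 G2/M promoters (84.2%) against 37.9% of all promoters. These matches are a description of letters, not of binding sites.

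The 6 stretches below are shown because they carry these elements before the start of genes on which the results below turn, 3 of the replication origin and 3 of mitosis. Capitals mark the E2F element in Mcm5, Mcm6 and Cdc6, the CHR element and the CCAAT box in Cdc20 and Mki67, and all of these in Cdk1. In the first 3, only the E2F element is marked, and the CCAAT box in Mcm6 is left in lower case. All lie upstream of the RefSeq start, on chr8:75109346-75109377 (plus strand, Mcm5), chr1:128359735-128359825 (minus, Mcm6), chr11:98908003-98908030 (plus, Cdc6), chr4:118437344-118437406 (minus, Cdc20), chr7:135716462-135716577 (minus, Mki67) and chr10:69352913-69353130 (minus, Cdk1).
Mcm5: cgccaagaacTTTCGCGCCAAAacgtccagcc
Mcm6: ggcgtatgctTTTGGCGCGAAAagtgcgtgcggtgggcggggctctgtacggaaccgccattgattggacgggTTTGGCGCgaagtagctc
Cdc6: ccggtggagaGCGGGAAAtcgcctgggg
Cdc20: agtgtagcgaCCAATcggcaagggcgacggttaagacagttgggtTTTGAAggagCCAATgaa
Mki67: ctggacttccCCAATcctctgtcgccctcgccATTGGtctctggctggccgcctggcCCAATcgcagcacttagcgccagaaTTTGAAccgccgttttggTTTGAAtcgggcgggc
Cdk1: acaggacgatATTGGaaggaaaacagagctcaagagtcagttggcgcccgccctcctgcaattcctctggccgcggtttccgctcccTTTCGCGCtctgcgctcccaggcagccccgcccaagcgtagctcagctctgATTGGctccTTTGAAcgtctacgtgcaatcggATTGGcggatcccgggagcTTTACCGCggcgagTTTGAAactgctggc
In Mcm5 and at the first site of Mcm6, 2 E2F matches on opposite strands overlapped into 1 palindrome-like run. Cdk1, the kinase that drives entry into mitosis, was the G2/M member whose promoter held the E2F element, and it held the CHR and CCAAT elements as well.

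The summed level of the members differed between classes far more than between the libraries in most of them. Lymphoid cells held 1010 and 1273 CPM of S-phase UMIs in libraries 1 and 2, and 1875 and 2363 CPM of G2/M UMIs. Plasma cells held 765 and 816 CPM of S-phase and 1654 and 1899 CPM of G2/M UMIs. Epithelial cells were lower and differed more between libraries, at 411 and 668 CPM of S-phase and 759 and 1460 CPM of G2/M UMIs.

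Neutrophils lay at the other end, at 73.0 and 83.4 CPM of S-phase and 51.6 and 98.7 CPM of G2/M UMIs, the lowest of each library in both phases on this scale. Stromal cells (56.2 and 311 CPM) and endothelial cells (60.4 and 166 CPM) came next for G2/M in library 1. Phagocytes held 268 and 294 CPM of S-phase and 178 and 213 CPM of G2/M UMIs. B cells held 749 and 515 CPM of S-phase and 341 and 338 CPM of G2/M UMIs.

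The order of these levels depended on scaling, whereas the balance of the phases does not. After TMM scaling (edgeR's correction of library totals, by factors of 0.476 and 0.513 in neutrophils and 0.627 and 0.704 in plasma cells), the S-phase sum was 588 and 401 scaled CPM in B cells, 1226 and 1165 in plasma and 838 and 1044 in lymphoid cells. The G2/M sum was then 2650 and 2709 scaled CPM in plasma cells, above the 1556 and 1938 of lymphoid cells. Neutrophils, at 109 and 193 scaled CPM of G2/M UMIs, lay above endothelial cells (44.6 and 131) in both libraries and above stromal cells (43.9 and 263) in library 1, while their S-phase sum (154 and 163) was still the lowest. Since the same number of UMIs can come from few cells with many or many cells with few, these sums alone do not separate the 2.

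**Figure D1:**
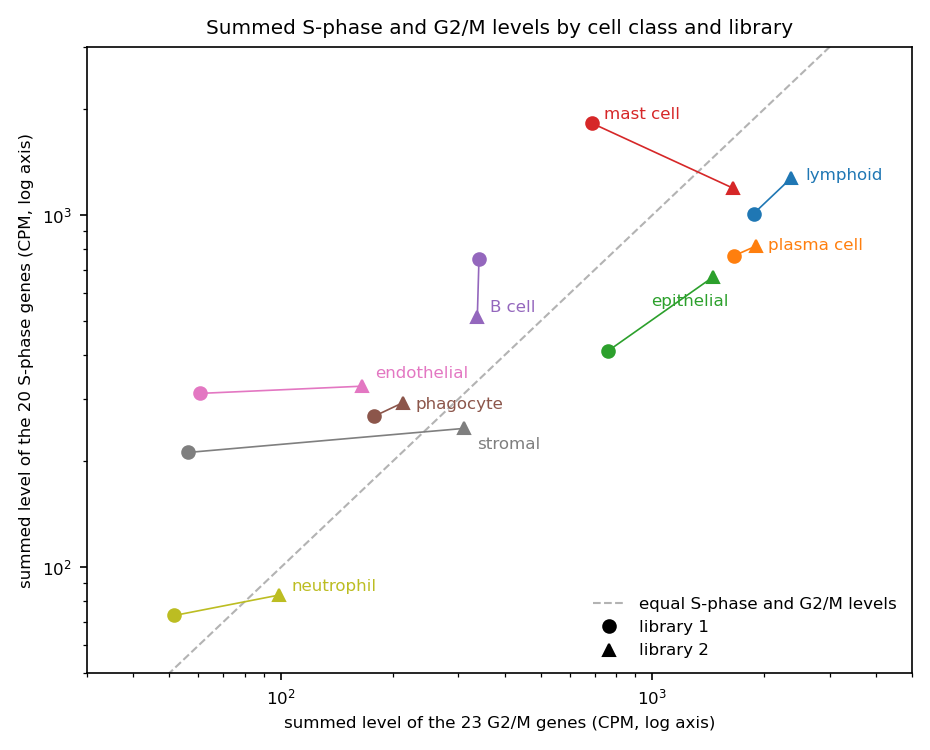
Summed level of the 20 S-phase genes (vertical) against that of the 23 G2/M genes (horizontal), in CPM of each class, both on log axes, with a circle for library 1, a triangle for library 2 and a line joining the libraries of a class. Lymphoid, plasma and epithelial cells lie to the right of the dashed line of equal levels in both libraries, and B cells, phagocytes and endothelial cells to its left.

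The phase balance, given as the S-phase share of all member UMIs, placed the classes in 2 sets. It depends on how well each gene is captured, so it was compared between classes and not read as a share of time or of cells. The share was 35.0% in lymphoid cells in both libraries (95% exact intervals 34.5 to 35.6% and 34.6 to 35.4%, which cover counting error only). It was 31.6% (29.9 to 33.4%) and 30.1% (28.6 to 31.5%) in plasma cells, and 35.1% (34.7 to 35.6%) and 31.4% (31.1 to 31.7%) in epithelial cells. These 3 classes, which held the highest G2/M levels apart from mast cells, thus lay between 30.1% and 35.1% in both libraries.

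Phagocytes lay at 60.1% (58.5 to 61.7%) and 57.9% (57.0 to 58.8%), and B cells at 68.7% (64.5 to 72.6%) and 60.4% (56.5 to 64.2%). Neither class overlapped the lymphoid, plasma and epithelial classes in either library. Expressed as a log2 ratio of S-phase to G2/M UMIs, the mean was −0.89 in lymphoid cells, −1.16 ± 0.07 (SD, n = 2) in plasma cells, −1.01 ± 0.17 in epithelial cells, 0.53 ± 0.09 in phagocytes and 0.87 ± 0.37 in B cells.

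The other classes gave no stable balance. The share was 58.6% (53.5 to 63.5%) and 45.8% (42.7 to 49.0%) in neutrophils, 83.8% and 66.3% in endothelial cells and 79.0% and 44.3% in stromal cells. In mast cells it was 72.7% (68.9 to 76.2%) in library 1 and 42.0% (38.0 to 46.0%) in library 2. Beside this difference, the mast cells of library 2 held 3315 CPM of plasma cell markers against 181 CPM in library 1. Those of library 1 held 982 CPM of lymphoid markers against 108 CPM in library 2. The 8 markers of eosinophils and basophils summed to 3025 CPM in library 1 and 657 CPM in library 2. Mcpt8, which is 1 of them, was among the leading genes of the mast cluster. The part of these markers in the balance was not tested. With 33 and 41 cells, the mast values rest on few cells.

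The make-up of each phase's UMIs differed between classes. Pcna and Slbp, the sliding clamp of the replication fork and the binding protein of histone messages, together made up 27.9% and 26.8% of the S-phase UMIs of lymphoid cells and 19.8% and 21.3% of those of plasma cells. In phagocytes they made up 47.1% and 48.4%, in neutrophils 55.5% and 48.7% and in colonocytes 63.9% and 55.1%. On the G2/M side, Mki67, which coats mitotic chromosomes, and Top2a, which untangles them, made up 52.4% and 50.6% of the UMIs of phagocytes against 35.0% and 34.9% of those of lymphoid cells, but only 31.5% and 29.3% in neutrophils, 14.3% and 22.0% in stromal and 12% and 29.9% in endothelial cells. The larger share in phagocytes was that of Mki67 and not of Top2a. On scaled CPM, phagocytes held 79.5 and 89.5 of Mki67 and 26.2 and 27.5 of Top2a, in G2/M sums of 202 and 231. Lymphoid cells held 275 and 334 of Mki67 and 270 and 342 of Top2a, in sums of 1556 and 1938. Without Pcna and Mki67, the most abundant member of each phase, the mean S-phase share of phagocytes went from 59.0% to 62.5%.

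**Figure D2:**
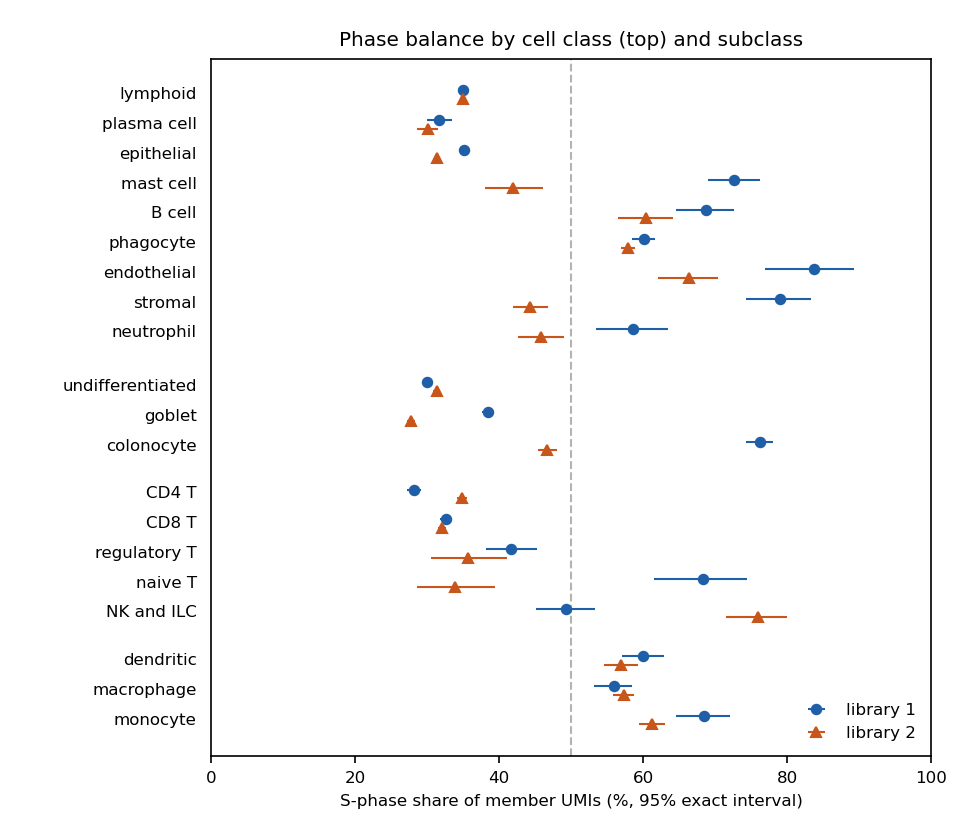
S-phase share of all member UMIs in percent, with 95% exact intervals, for the 9 classes (top) and for the subclasses of epithelial, lymphoid and phagocyte cells, with a circle for library 1 and a triangle for library 2. Lymphoid, plasma and epithelial cells lie between 30.1% and 35.1% in both libraries, and phagocytes and B cells between 57.9% and 68.7%.

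Level and balance were next followed cell by cell. Each cell was thinned at random to 2000 UMIs so that deep and shallow cells could be set side by side, and shallower cells were left out (99 and 212 lymphoid, 42 and 34 epithelial, 47 and 110 phagocyte, 33 and 62 neutrophil). Of the B cells, 122 of 144 and 207 of 293 were kept, and of the mast cells 26 of 33 and 24 of 41, so their shares describe the deeper cells only. At least 2 G2/M UMIs were found in 17.7% (15.9 to 19.7%) and 24.2% (22.4 to 26.0%) of lymphoid cells, in 19.0% (10.2 to 30.9%) and 26.5% (18.1 to 36.4%) of plasma cells and in 9.18% (7.88 to 10.6%) and 22.0% (19.7 to 24.5%) of epithelial cells. Neutrophils were taken as the background class on the assumption that they no longer divide, which was not tested here. In them the share was 1.47% (0.543 to 3.18%) and 2.30% (1.41 to 3.53%). Before thinning the same shares were 31.7% and 40.1% in lymphoid cells, 28.9% and 54.8% in epithelial cells and 6.36% and 10.7% in neutrophils, whose median depths were 5266.5 and 4705.5, 17352 and 23859, and 6792.5 and 5694 UMIs.

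Phagocytes, at 4.10% (2.84 to 5.72%) and 6.18% (5.28 to 7.18%) of thinned cells, lay above neutrophils in the same library, though the intervals met in library 1. B cells lay at 5.74% (2.34 to 11.5%) and 7.73% (4.48 to 12.2%). Stromal cells, at 0.935% and 1.35%, and endothelial cells, at 0 of 52 cells (which allows up to 5.77%) and 4.10%, could not be told from the neutrophil background at this depth. For S-phase UMIs the order was another: at least 2 were found in 30.3% and 22.7% of B cells, in 29.2% and 37.0% of lymphoid cells, in 9.73% and 19.4% of epithelial cells and in 0.737% and 1.61% of neutrophils.

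The spread of the members over cells differed between classes in the same way. Cells with at least 3 member UMIs after thinning made up 25.4% and 35.1% of lymphoid cells and held 82.5% and 87.6% of the members' UMIs there. In plasma cells, 23.8% and 26.5% of cells held 92.9% and 91.0% of member UMIs. In phagocytes, 5.72% and 7.93% of cells held 35.8% and 35.4%, and in neutrophils 0.246% and 1.04% of cells held 2.78% and 8.33%. Most member UMIs of phagocytes and neutrophils thus lay in cells with only 1 or 2 of them. Among the lymphoid cells with at least 3 member UMIs, 70.9% and 74.7% held UMIs of both phases, and in 49.6% and 49.8% the S-phase UMIs outnumbered the G2/M UMIs; in the epithelial ones the latter share was 38.3% (31.6 to 45.4%) and 26.3% (21.3 to 31.8%).

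**Figure D3:**
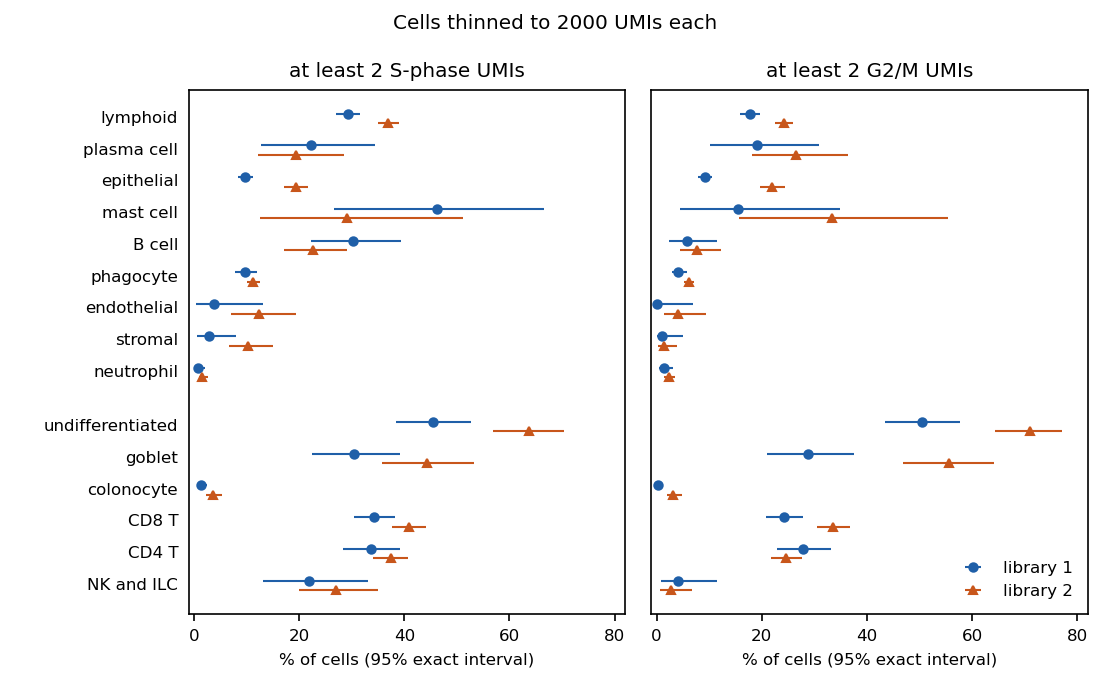
Share of cells, each thinned to 2000 UMIs, with at least 2 S-phase (left) or at least 2 G2/M UMIs (right), in percent with 95% exact intervals, for the 9 classes and 6 subclasses, with a circle for library 1 and a triangle for library 2. Undifferentiated epithelial cells reach 50.5% and 71.0% for G2/M, and B cells lie among the higher classes for S-phase and near phagocytes for G2/M.

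The 2 phases also differed in how closely they followed Mki67 and Top2a. In thinned lymphoid cells, 21.6% and 28.0% held a UMI of either gene. Those cells held a median of 86.8% and 87.6% of the UMIs of the other 21 G2/M genes, and 51.0% and 60.3% of those of the S-phase genes (members with at least 20 UMIs). Among the S-phase genes, Rrm2, the regulated subunit of ribonucleotide reductase, followed the G2/M pattern, with 85.1% and 87.4% of its UMIs in such cells. Slbp (28.4% and 44.2%), the helicase subunit gene Mcm6 (31.1% and 42.5%) and Pcna (46.8% and 49.9%) had lower shares there, each above the share of cells marked.

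In epithelial cells, where 10.3% and 22.8% of cells held Mki67 or Top2a, the medians were 74.1% and 83.9% for G2/M and 46.0% and 68.8% for S-phase genes. Ccne2, a cyclin E, had 19.5% and 42.6% of its epithelial UMIs in these cells, and Pcna 24.1% and 46.7%. In phagocytes of library 2, where 13.3% of cells were marked, the medians fell to 28.2% over 12 G2/M genes and 17.8% over 15 S-phase genes. In those of library 1, where 10.8% were marked, the median was 23.9% over 6 S-phase genes, and no other G2/M gene reached 20 UMIs.

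Each class was then tested against the mean of the other classes with edgeR's quasi-likelihood test on UMIs summed per library and class, with the library as a block. Here the log2 difference is taken against the mean of the logs of the other classes, values are CPM after TMM scaling (scaled CPM), and the mean of the other classes is given as the geometric mean. A gene was called at a Benjamini-Hochberg adjusted p under 0.05 over all 14961 genes tested. In bulk sums of this kind, fewer dividing cells and less RNA per dividing cell cannot be told apart. Without TMM scaling the median log2 difference of all genes moved by between −1.12 (neutrophils) and 0.50 (mast cells), and in the class comparisons below a direction that turned with it is named.

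In lymphoid cells all 20 S-phase and all 23 G2/M genes were higher, where 28.3% of all genes were called higher. The median log2 difference was 1.37 for S-phase and 2.36 for G2/M genes, against 0.12 over all genes. Of the replication genes, Rrm2 lay at 34.3 and 47.1 scaled CPM against 7.13 and 10.4 in the other classes, a log2 difference of 2.18 ± 0.26 (SE, edgeR adjusted p = 4.1e-07). Uhrf1, which recruits the maintenance DNA methyltransferase to new DNA, differed by 2.09 ± 0.23, Hells, a chromatin remodeller, by 1.89 ± 0.23, and Mcm5, a helicase subunit, by 1.75 ± 0.16.

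Of the mitotic genes, Cenpf, a kinetochore protein, lay at 105 and 129 scaled CPM in lymphoid cells against 9.42 and 22.3, a log2 difference of 2.86 ± 0.19 (edgeR adjusted p = 4.4e-11). Hmmr, a spindle protein, differed by 2.96 ± 0.25, Nusap1, which bundles spindle microtubules, by 2.71 ± 0.19, Ccnb2, a mitotic cyclin, by 2.61 ± 0.20 and Prc1, which holds the central spindle together, by 2.60 ± 0.26. In both libraries lymphoid cells lay above the geometric mean of the others for each of these. On plain CPM the lymphoid class had the highest mean of all classes for 18 of the 23 G2/M genes, while 4 (Mki67, Cdk1, Ccna2 and Ccnb1) were highest in plasma cells and Kif11 in mast cells. On scaled CPM this turned, with 21 of the 23 highest in plasma and 2 in lymphoid cells.

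In plasma cells 19 S-phase genes, all but Gins2, and all 23 G2/M genes were higher, where 18% of all genes were called higher, with medians of 1.70 and 2.81 against −0.20 over all genes. Ccne1, the cyclin E that starts S phase together with Cdk2, lay at 107 and 105 scaled CPM in plasma cells and at 4.70 and 4.98 in the others, a log2 difference of 4.40 ± 0.27 (edgeR adjusted p = 2.1e-11). Rrm2 lay at 172 and 118 against 5.74 and 9.20 (4.27 ± 0.29), and Mki67 at 642 and 716 against 32.6 and 69.1 (3.69 ± 0.18). Cdc6, which loads the helicase onto origins, differed by 2.83 ± 0.45. On plain CPM, Ccne1 (70.0 ± 4.84 CPM, SD, n = 2) and Rrm2 (95 ± 17.6 CPM) were the S-phase genes whose mean was higher in plasma cells than in any other class, and for neither did the libraries overlap those of lymphoid cells, the second highest. On scaled CPM 8 of the 20 S-phase genes were highest in plasma cells.

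Set directly against lymphoid cells, plasma cells had 8 members higher, where 12.6% of all genes were called higher. Of the 8, Ccne1 (2.75 ± 0.29, edgeR adjusted p = 1.5e-07), Rrm2 (1.86 ± 0.31) and Ccne2 (1.48 ± 0.31) are S-phase genes. The G2/M genes were Mki67 (1.16 ± 0.26), Ccna2 (1.04 ± 0.27), Ccnb1 (1.03 ± 0.30), Cdk1 (0.99 ± 0.24) and Cdc20 (0.77 ± 0.26), which activates the anaphase-promoting complex. This comparison depended on scaling. The 10 plasma markers alone held 41345 and 40216 CPM in plasma cells, and without TMM scaling the median of all genes moved by −0.87: the S-phase median then went from 0.21 to −0.66 and the G2/M median from 0.52 to −0.35, with 2 members called higher and 15 lower, and Cdc20 changed sign (−0.10). On plain CPM, Ccne1 lay at 66.5 and 73.4 in plasma cells against 17.8 and 20.1 in lymphoid cells, and Rrm2 at 108 and 82.6 against 41.3 and 57.4, without overlap.

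Against B cells, the class of the same lineage that does not secrete, plasma cells had 13 of 20 S-phase and 22 of 23 G2/M genes higher, where 12.2% of all genes were called higher. The median was 1.34 for S-phase and 3.27 for G2/M genes. Cdk1 lay at 76.5 and 79.5 scaled CPM in plasma cells and at 4.87 and 3.02 in B cells (4.43 ± 0.48, edgeR adjusted p = 3.4e-07), and Mki67 at 642 and 716 against 34.1 and 42.3 (4.20 ± 0.35). Of the S-phase genes, Rrm2 differed by 4.48 ± 0.54, while Slbp, Cdt1, Ung, Hells, Mcm4, Gins2 and E2f1 were not called. On plain CPM the all-gene median moved by −0.93, the G2/M median to 2.34, and 3 S-phase genes were higher and 2 lower.

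B cells themselves had few members called in either direction. Against the other classes 5 S-phase genes were higher, where 15.5% of all genes were called higher, while 4 G2/M genes were lower, where 13.2% were called lower. Cdt1, which loads the helicase together with Cdc6, lay at 24.4 and 39.3 scaled CPM against 9.02 and 12.6 (1.58 ± 0.23, edgeR adjusted p = 1.6e-05), and Ung, which removes uracil from DNA and acts in antibody gene diversification, at 13 and 9.06 against 2.86 and 2.79 (1.96 ± 0.52). Hells (1.09 ± 0.41), Mcm7 (0.74 ± 0.25) and Slbp (0.60 ± 0.17) completed the 5. The 4 lower genes were Cdk1 (−2.10 ± 0.53), Aurka, a spindle pole kinase (−2.35 ± 0.85), Ccnb2 (−1.90 ± 0.62) and Mki67 (−1.04 ± 0.32). Aurka rested on 0 UMIs in library 1, and 13 and 10 members had at most 3 UMIs in the B cells of libraries 1 and 2. With 5 of 20 and 4 of 23, both counts lay near the background. The 4 lower became 1 on plain CPM or without the library block and 2 with DESeq2, and the S-phase median of −0.05 became 0.35 without TMM scaling, which moved the median of all genes by 0.41.

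In epithelial cells 11 S-phase genes were higher and 1 lower, and all 23 G2/M genes were higher, where 36.6% of all genes were called higher and 20.4% lower. The medians were 0.53 and 1.70, against 0.14 over all genes. The S-phase genes higher were led by Ccne2, at 12.5 and 17.8 scaled CPM against 4.74 and 5.97 (1.5 ± 0.19, edgeR adjusted p = 5.9e-07), Ung (1.46 ± 0.28), Hells (1.38 ± 0.24), Rrm2 (1.34 ± 0.27) and Uhrf1 (1.32 ± 0.24). Slbp was lower by a log2 difference of −0.37 ± 0.13. Of the 6 helicase subunit genes, 4 (Mcm2, Mcm3, Mcm4 and Mcm6) were among the 8 S-phase genes not called.

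Among the mitotic genes of epithelial cells, Plk1, a kinase of mitotic entry, lay at 18.7 and 28.4 scaled CPM against 2.73 and 5.95 (2.32 ± 0.22, edgeR adjusted p = 6.6e-09) and Cdc20 at 22.6 and 33.5 against 4.12 and 8.67 (2.08 ± 0.18). Hmmr differed by 2.37 ± 0.25, and Ube2c, the ubiquitin-conjugating enzyme of the anaphase-promoting complex, by 2.08 ± 0.21. In every one of these, library 2 lay above library 1. The neutrophil markers summed to 1042 and 1466 CPM and the lymphoid ones to 53.2 and 57.3 CPM in epithelial cells.

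Set against lymphoid cells, epithelial cells had 14 S-phase and 13 G2/M genes lower, where 32% of all genes were called lower, and Ccne2 alone higher (0.59 ± 0.22, edgeR adjusted p = 0.020), where 34.1% were called higher. All 6 helicase genes were lower: Mcm4 lay at 16.8 and 26.9 scaled CPM against 55.2 and 68.9 (−1.52 ± 0.19, edgeR adjusted p = 2.9e-07), and Mcm6 at 30.5 and 37.7 against 76.8 and 99.1 (−1.37 ± 0.22). Of the mitotic genes Nusap1 (−1.29 ± 0.24) and Kif11, a spindle motor (−1.05 ± 0.28), were among the lower, whereas Ccnb1 (−0.01 ± 0.22) and Cdc20 (0.26 ± 0.19) were not called. DESeq2 called 12 members lower in place of 27, and the fit without the library block 15; in the latter and on plain CPM no member was higher.

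Phagocytes had 12 S-phase genes and 19 G2/M genes lower than the other classes, where 14.1% of all genes were called lower, with medians of −1.07 and −1.57 against 0.11 over all genes. Kif11 lay at 4.20 and 3.42 scaled CPM against 13.2 and 20.9 (−2.32 ± 0.37, edgeR adjusted p = 2.0e-05), Nusap1 at 5.88 and 5.52 against 14.4 and 26.5 (−1.96 ± 0.30) and Ccne2 at 1.96 and 1.64 against 5.96 and 7.96 (−2.05 ± 0.31). E2f1, a transcription factor of the S-phase genes, was higher by 1.25 ± 0.28 (edgeR adjusted p = 7.9e-04), where 28.7% of genes were called higher. Mki67, Pcna and Slbp, the abundant members, were not called.

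Neutrophils had 19 S-phase genes, all but Rrm2, and 18 G2/M genes lower, where 26.2% of all genes were called lower, with medians of −2.01 and −1.62 against −0.13. Mcm3 lay at 2.68 and 4.32 scaled CPM against 33.7 and 31.3 (−3.15 ± 0.39, edgeR adjusted p = 4.9e-07), Tyms, which makes thymidylate, at 4.03 and 3.60 against 21.1 and 23.5 (−2.65 ± 0.43) and Top2a at 16.1 and 23.4 against 49.6 and 103 (−2.09 ± 0.36). Without TMM scaling the all-gene median moved by −1.12 in this class, so the members' fall is smaller on the scale used here than on plain CPM.

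Between these 2 myeloid classes, phagocytes had 8 S-phase and 2 G2/M genes higher than neutrophils, where 28.3% of all genes were called higher. The S-phase median was 0.97 and the G2/M median −0.10. E2f1 lay at 7.27 and 9.35 scaled CPM against 2.68 and 0.721 (2.58 ± 0.54, edgeR adjusted p = 4.2e-04), Cdt1 at 12.7 and 15.6 against 2.68 and 3.96 (2.07 ± 0.31) and Pcna at 89.0 and 93.7 against 32.2 and 33.1 (1.49 ± 0.20). The 2 G2/M genes were Mki67 (1.74 ± 0.31) and Tacc3, a spindle protein (1.07 ± 0.35). Without TMM scaling, which moved the all-gene median by 0.86, 24 members were higher and the G2/M median turned to 0.77.

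Mast cells had 17 S-phase and 5 G2/M genes higher, where 9.64% of all genes were called higher, and 0 members lower by edgeR, by DESeq2 or at an unadjusted p under 0.05, where edgeR called 7.52% of all genes. The medians were 2.0 and 0.90 against −0.19. Mcm3 lay at 154 and 72.8 scaled CPM against 20.5 and 22.1 (2.46 ± 0.31, edgeR adjusted p = 5.6e-06). Mast cells had the highest mean plain CPM of all classes for 16 of the 20 S-phase genes, although for 9 of these the libraries overlapped those of the second class, and on scaled CPM for 10. Kif11 (2.22 ± 0.50), at 23.3 and 102 scaled CPM, and Cenpe, a kinetochore motor (1.59 ± 0.54), at 14.6 and 80.1, were far apart between the libraries, as were the plasma markers given above.

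Stromal cells had 16 S-phase and 16 G2/M genes lower, where 19.6% of all genes were called lower, and endothelial cells 15 and 18, where 13.3% were. The medians were −1.24 and −1.28 in stromal and −1.72 and −2.18 in endothelial cells. Mki67 lay at 3.14 and 23.2 scaled CPM in stromal cells against 62.8 and 106 (−2.60 ± 0.30, edgeR adjusted p = 2.3e-07) and at 1.78 and 10.5 in endothelial cells against 66.5 and 117 (−3.73 ± 0.43). edgeR called no member higher in either class, where 29.4% of all genes were in stromal and 21.3% in endothelial cells, and neither DESeq2 nor an unadjusted p under 0.05 gave any. Library 2 was the higher in both classes, and 32 of the 43 members had at most 3 UMIs in the endothelial cells of library 1.

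Some genes were followed in every class whatever their test, here on plain CPM. Mki67 lay, in libraries 1 and 2, at 401 and 502 CPM in plasma, 331 and 408 in lymphoid, 140 and 300 in mast, 113 and 215 in epithelial, 70.2 and 82.5 in phagocyte, 43.4 and 54.4 in B, 4.01 and 27.5 in stromal, 8.61 and 17 in neutrophil and 2.42 and 13.3 in endothelial cells. The plasma and lymphoid libraries overlapped, and so did those of the last 3 classes. Top2a kept that order except that lymphoid cells came first (326 and 417 CPM against 324 and 329 in plasma cells), that B cells, at 64.1 and 71.2 CPM, lay above phagocytes, at 23.1 and 25.3, and that neutrophils, at 7.65 and 12, came last by their mean. After TMM scaling the plasma and lymphoid libraries no longer overlapped for Mki67 (642 and 716 against 275 and 334 scaled CPM). Plasma cells then came first for Top2a as well (519 and 469 scaled CPM against 270 and 342 in lymphoid cells), and endothelial cells last (3.57 and 28.6 against 16.1 and 23.4 in neutrophils).

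Pcna, again on plain CPM, varied less across classes: it lay at 151 and 197 CPM in lymphoid, 102 and 101 in plasma, 93.1 and 93.2 in B, 77.2 and 110 in epithelial, 99.1 and 88.6 in endothelial, 78.6 and 86.4 in phagocyte and 38.5 and 51.1 in stromal cells, with 259 and 169 in mast cells and 15.3 and 17 in neutrophils. On scaled CPM the Pcna of plasma cells (163 and 144) lay well above that of endothelial cells (73.1 and 70.0), which was close to that of B cells (73.1 and 72.5). Mcm5 lay at 52.8 and 62.3 CPM in lymphoid, 38.4 and 24.0 in plasma, 16.0 and 28.0 in epithelial, 12.4 and 23.3 in B and 8.28 and 8.81 in phagocyte cells, and Tyms at 44.3 and 59.5, 35.0 and 19.1, 30.8 and 48.6, 18.6 and 7.77, and 8.16 and 6.31 CPM in the same classes. Ccnb1, the cyclin B partner of Cdk1, lay at 25.0 and 30.6 CPM in lymphoid, 29.0 and 33.9 in plasma and 16.8 and 28.7 in epithelial cells, and at 1.24 and 3.30 in phagocytes and 2.23 and 1.85 in neutrophils. The lymphoid, plasma and epithelial libraries overlapped for Ccnb1.

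**Figure D4:**
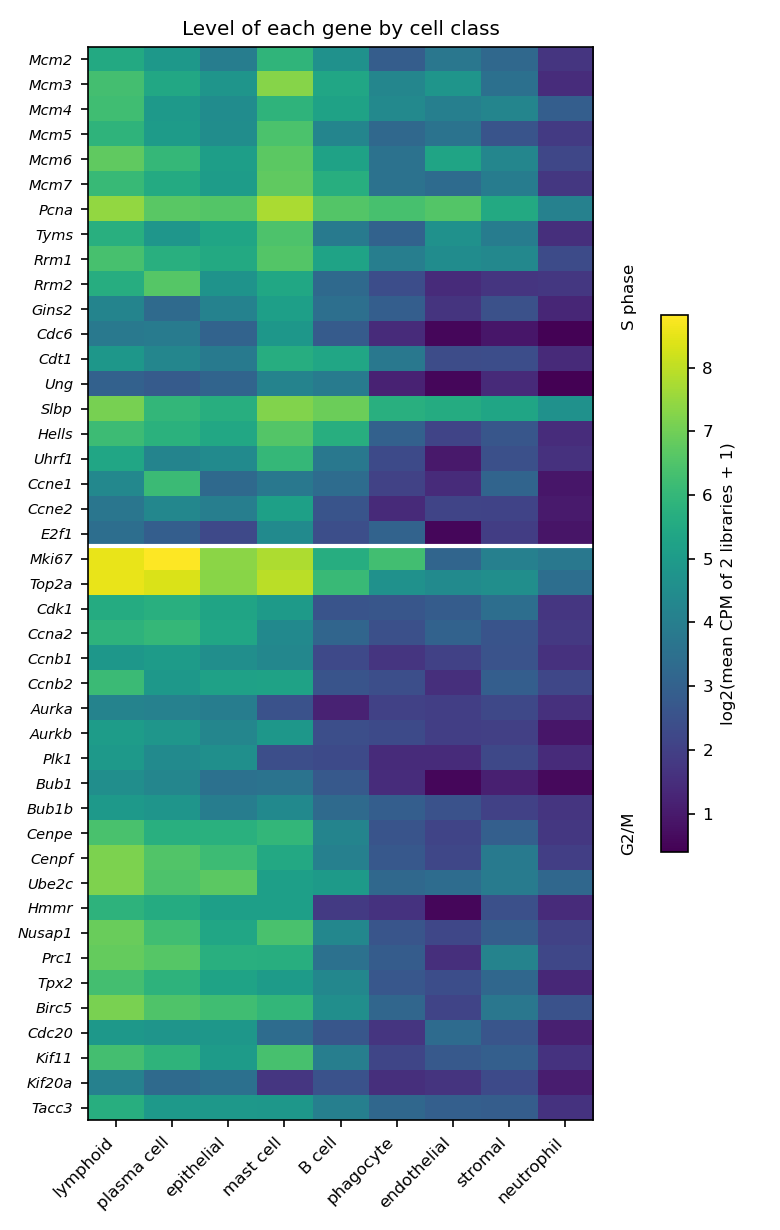
Level of each member (rows, S-phase genes above the white line and G2/M genes below) in each class (columns), as log2 of the mean CPM of the 2 libraries plus 1. G2/M genes are bright in lymphoid, plasma and epithelial cells, the S-phase genes also in mast and partly in B cells, and neutrophils are dark in nearly all rows.

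Within the epithelium the members were held by 2 of the 3 subclasses large enough to test. Undifferentiated cells (201 and 208) held 1166 and 1621 CPM of S-phase and 2728 and 3555 CPM of G2/M UMIs, goblet cells (131 and 134) 822 and 1076 and 1318 and 2799, and colonocytes (937 and 719) 105 and 159 and 32.8 and 182. At 2000 UMIs per cell, at least 2 G2/M UMIs were found in 50.5% and 71.0% of undifferentiated cells, 28.8% and 55.6% of goblet cells and 0.217% and 3.17% of colonocytes, the latter at or near the neutrophil values. The S-phase share of member UMIs was 29.9% and 31.3% in undifferentiated and 38.4% and 27.8% in goblet cells. In colonocytes it was 76.2% and 46.7%. Different clusters held most colonocytes in the 2 libraries, but the share was lower in library 2 within every colonocyte cluster as well. It was 79.8% and 46.0% in a cluster of 111 and 242 cells, 76.7% and 41.7% in a cluster of 38 and 219, and 74.3% and 63.1% in a cluster of 242 and 99. The part of the cluster make-up was not tested.

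In the fit of the 3 epithelial subclasses (13551 genes, 2 residual degrees of freedom), undifferentiated cells had 19 S-phase genes, all but Ccne2, and all 23 G2/M genes higher, where 25% of all genes were called higher. Hells lay at 86.3 and 119 scaled CPM against 10.6 and 15.6 (3.03 ± 0.17, edgeR adjusted p = 2.0e-04), Mcm3 at 53.7 and 76.8 against 7.01 and 11.2 (2.92 ± 0.15) and Kif11 at 59.1 and 81.1 against 7.18 and 16.8 (2.71 ± 0.20). The undifferentiated name came from a marker score; the leading genes of that cluster over all genes were Stmn1, Top2a and others of growing cells, with none of its markers among the first 10. Colonocytes, the absorptive cells of the surface, had 19 S-phase and all 23 G2/M genes lower, where 37.2% of all genes were called lower, with medians of −3.52 and −3.86. Uhrf1 lay at 0.946 and 1.52 scaled CPM in colonocytes against 34.5 and 46.1 (−5.01 ± 0.20, edgeR adjusted p = 4.5e-06) and Aurkb, the kinase of the chromosomal passenger complex, at 1.30 and 1.85 against 28.5 and 42.8 (−4.49 ± 0.21).

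Goblet cells, which secrete mucus, had 16 S-phase and 22 G2/M genes higher than the mean of the other 2 subclasses, where 25.3% of all genes were called higher, with medians of 1.52 and 1.48. That mean lies between colonocytes and undifferentiated cells on the log scale: Mcm2 lay at 25.9 and 25.4 scaled CPM in goblet cells, against 31.4 and 35.7 in undifferentiated cells and 0.946 and 0.926 in colonocytes, and its log2 difference was 2.19 ± 0.17 (edgeR adjusted p = 2.8e-04). Top2a in goblet cells lay at 162 and 343 scaled CPM, again below the 280 and 432 of undifferentiated cells in the same library.

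Within the lymphoid class, CD8 and CD4 T cells held the highest levels. CD8 T cells (609 and 943) held 1171 and 1426 CPM of S-phase and 2424 and 3022 CPM of G2/M UMIs, and CD4 T cells (324 and 914) 1118 and 1281 and 2852 and 2403. All 22 G2/M genes that passed the filter on low counts were higher in each against the other lymphoid subclasses, where 12.5% of all genes were called higher in CD8 and 11% in CD4 T cells, and 12 and 10 of the 16 S-phase genes that passed it. In CD8 T cells Plk1 lay at 45.1 and 42.9 scaled CPM against 5.38 and 10.8 (2.19 ± 0.27, edgeR adjusted p = 6.5e-06) and in CD4 T cells Cdk1 at 68.5 and 56.2 against 18.3 and 15.3 (1.89 ± 0.23, edgeR adjusted p = 8.1e-06). By edgeR, by DESeq2 or at an unadjusted p under 0.05, 0 members were lower in either, where edgeR called 5.4% of all genes lower in CD4 and 8.84% in CD8 T cells. In both, Slbp, Ccne1, Gins2 and Cdt1 were among the S-phase genes not called. These counts depended on the clustering: with cell cycle genes left in, 1 member was higher in CD4 T cells, and 5 named genes (Rrm1, Plk1, Ccnb1, Bub1b and Birc5) changed sign there. The largest CD8 T cluster (294 and 384 cells) had Ube2c, Ncapg and H2ac8 among its 10 leading genes, although these were held out of the clustering. How far the clusters still parted cells by division was not tested. Lymphoid cells that no marker list named (533 and 422) were outside these comparisons. The CD8 T name also covered 2 clusters with no CD8 T marker among their 10 leading genes. In 1 of them (177 and 46 cells), Gzma, Trdc and Trgc1 were among these, and G2/M UMIs lay at 1015 and 4318 CPM. The other (22 and 103 cells) was led by Ifit1 and scored 1.66 for CD8 and 1.41 for CD4 T cells. Their part in the CD8 T values was not tested.

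In NK and innate lymphoid cells (76 and 165) more G2/M than S-phase genes were lower, and the phase balance differed between the libraries. The name comes from a joint marker list, and these cells formed 1 cluster, led by Klra4, Ncr1, Klra8 and Klri2. Clusters led by Il22 and Il17a (29 and 83 cells) and by Calca (76 and 22) were left unnamed, so the values do not cover them. The named cells held 746 and 570 CPM of S-phase UMIs but 769 and 181 CPM of G2/M UMIs, an S-phase share of 49.2% (45.1 to 53.3%) and 75.9% (71.4 to 80%). In library 1 that share was below that of naive T cells (68.2%) and beside that of the lymphoid cells no marker list named (49.7%). At 2000 UMIs per cell, 21.9% and 27.0% of them held at least 2 S-phase UMIs, against 4.11% and 2.70% with at least 2 G2/M UMIs, where the exact intervals (0.856 to 11.5% and 0.741 to 6.78%) hold the neutrophil background of 1.47% and 2.30%. Against the other lymphoid subclasses 4 S-phase genes were lower, and 17 of 22 G2/M genes, where 8.51% of all genes were called lower. No member was higher there by edgeR, which called 9.19% of all genes higher, by DESeq2 or at an unadjusted p under 0.05. Birc5, the survivin of the chromosomal passenger complex, lay at 26.1 and 3.67 scaled CPM against 73.0 and 129 (−3.09 ± 0.50, edgeR adjusted p = 1.0e-04) and Hmmr at 7.84 and 3.67 against 38.2 and 54.6 (−3.05 ± 0.49). Both genes were lower in both libraries, further in library 2.

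Naive T cells (42 and 64) had 3 S-phase and 3 G2/M genes lower, where 4.97% of all genes were called lower: Tyms (−3.99 ± 0.89, edgeR adjusted p = 0.0047), Rrm1, Mcm6, Cdk1, Top2a and Mki67. In these cells too edgeR, DESeq2 and an unadjusted p under 0.05 gave 0 members higher, where edgeR called 6.01% of all genes. Their S-phase share was 68.2% and 33.9% in the 2 libraries. In regulatory T cells (88 and 34) edgeR called no member higher or lower, where 6.52% and 3.16% of all genes were called. DESeq2 called 0 as well, and 1 member was higher and 1 lower at an unadjusted p under 0.05. Their S-phase share was 41.7% and 35.7%. Lymphoid cells that no marker list named (533 and 422) had a share of 49.7% and 48.1%.

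Within the phagocytes, dendritic cells (131 and 216) held 523 and 572 CPM of S-phase and 348 and 432 CPM of G2/M UMIs, macrophages (312 and 887) 277 and 340 and 218 and 254, and monocytes (242 and 1019) 188 and 227 and 86.5 and 143. The 3 did not overlap in either phase. In dendritic cells 15 of 18 S-phase and 13 of 18 G2/M genes that passed the filter were higher, where 20.1% of all genes were called higher: Uhrf1 lay at 12.9 and 18.9 scaled CPM against 2.28 and 2.39 (2.82 ± 0.33, edgeR adjusted p = 1.6e-05) and Top2a at 74.1 and 74.5 against 12.7 and 21.5 (2.03 ± 0.18). The highest levels were in a cluster of 28 and 42 dendritic cells led by Xcr1 and Clec9a, at 801 and 957 CPM of S-phase and 763 and 825 CPM of G2/M UMIs.

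Monocytes had 13 S-phase and 13 G2/M genes lower, where 17.1% of all genes were called lower. Mcm6 lay at 5.52 and 4.53 scaled CPM against 19.3 and 21.3 (−2.13 ± 0.26, edgeR adjusted p = 2.9e-05) and Tpx2, which starts microtubules at the spindle, at 1.10 and 3.40 against 8.48 and 12.1 (−1.99 ± 0.33). In macrophages E2f1 was higher (0.92 ± 0.30, edgeR adjusted p = 0.044) and Mcm4 lower (−0.75 ± 0.23, edgeR adjusted p = 0.035), where 12% and 11.1% of all genes were called; DESeq2 and the fit without the library block called neither. All 3 subclasses kept an S-phase share above 50%, at 60.0% and 56.9% in dendritic cells, 55.9% and 57.3% in macrophages and 68.4% and 61.3% in monocytes.

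**Figure D5:**
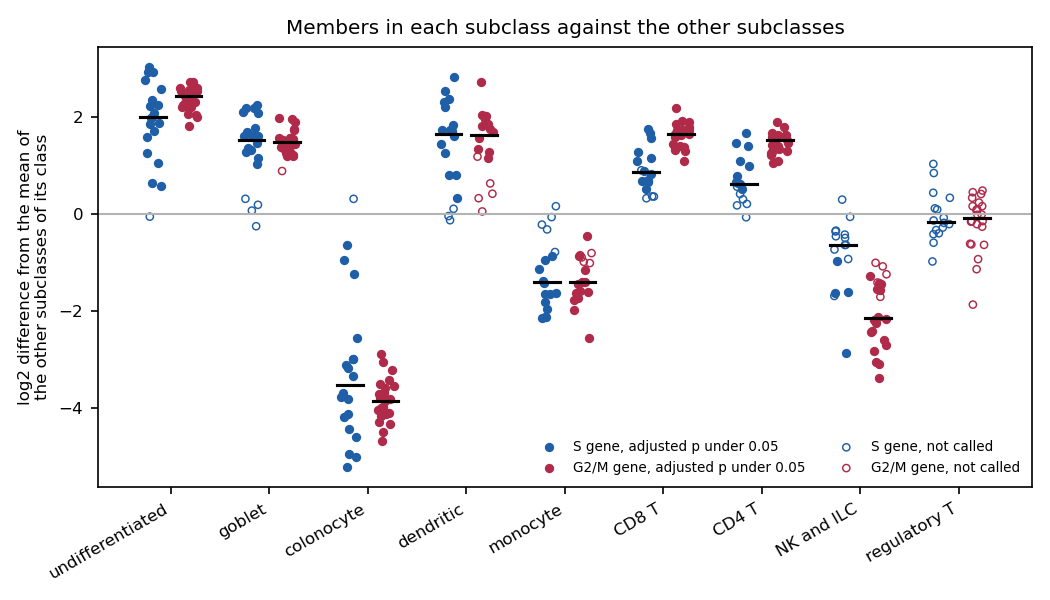
Log2 difference of each member (points, filled where the edgeR adjusted p is under 0.05) between a subclass and the mean of the other subclasses of its class, S-phase genes in blue and G2/M genes in red, with black bars at the medians. In NK and innate lymphoid cells (1 cluster, led by Klra4 and Ncr1) the G2/M genes lie lower (median −2.14) than the S-phase genes (median −0.64). In colonocytes and monocytes both phases are lower, and in dendritic and undifferentiated cells both are higher.

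Other genes of the same pathway were read from the same fits. Of 32 further replication genes tested, 32 were higher in lymphoid, 27 in plasma, 23 in epithelial and 16 in mast cells, and 17 were lower in phagocytes and 25 in neutrophils. Of 38 further mitotic genes, 38 were higher in lymphoid, 36 in plasma and 34 in epithelial cells, and 27 were lower in phagocytes and 25 in neutrophils. Over all genes, 28.3% were called higher in lymphoid, 18% in plasma, 36.6% in epithelial and 9.64% in mast cells. In phagocytes 14.1% were called lower, and in neutrophils 26.2%. Pclaf, a Pcna-binding protein, was higher by 2.64 ± 0.22 in lymphoid cells (edgeR adjusted p = 1.9e-09) and by 3.17 ± 0.25 in plasma cells. In B cells 4 of 32 replication genes were higher, among them Pold1, a subunit of DNA polymerase delta (1.97 ± 0.33, edgeR adjusted p = 7.4e-05). Of the 38 mitotic genes, 2 were higher and 2 lower there. None of these B cell counts exceeded the shares of all genes called, 15.5% higher and 13.2% lower.

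The regulators of entry and the brakes of the cycle were read in the same way, against the shares of all genes given above or, beside the brakes, below. Of 16 entry regulators, 12 were higher and 1 lower in lymphoid cells, 10 and 3 in epithelial, 8 and 2 in plasma and 4 and 0 in mast cells. The numbers were 4 and 9 in neutrophils, 1 and 7 in phagocytes, 2 and 5 in B, 2 and 6 in stromal and 2 and 4 in endothelial cells. In lymphoid cells the lower was Ccnd1, a cyclin D (−2.74 ± 0.29, edgeR adjusted p = 7.2e-08), while its relative Ccnd2 was higher (0.97 ± 0.13). In epithelial cells Ccnd1 was higher (2.59 ± 0.18) and Ccnd3 lower (−1.91 ± 0.17), and in neutrophils Ccnd3 was higher (2.77 ± 0.13). In plasma cells Cdc25a, the phosphatase that activates Cdk2, was higher by 2.01 ± 0.19, and in B cells Myc by 2.88 ± 0.24.

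Of 19 brake genes, 10 were higher and 2 lower in lymphoid cells, where 28.3% and 16.5% of all genes were called, and 9 and 4 in epithelial cells, where 36.6% and 20.4% were. In plasma cells 6 were higher and 4 lower (18% and 16.6% of all genes), in phagocytes 7 and 5 (28.7% and 14.1%) and in neutrophils 7 and 4 (27.2% and 26.2%). In stromal cells 2 were higher and 11 lower (29.4% and 19.6%), in endothelial cells 4 and 9 (21.3% and 13.3%), in B cells 1 and 4 (15.5% and 13.2%) and in mast cells 2 and 2 (9.64% and 7.52%). The cyclin-dependent kinase inhibitors differed by class: Cdkn2d was higher in neutrophils (3.86 ± 0.13, edgeR adjusted p = 8.1e-17), Cdkn2b in epithelial cells (4.83 ± 0.22), Cdkn1a in phagocytes (2.62 ± 0.12) and Cdkn1c in stromal cells (6.95 ± 0.28). Cdkn1a was lower in plasma (−2.07 ± 0.22) and lymphoid cells (−1.47 ± 0.17). The antiproliferative Btg1 was lower in plasma (−2.97 ± 0.23) and stromal cells (−1.79 ± 0.20) but higher in lymphoid (1.26 ± 0.15), B (1.65 ± 0.15) and phagocyte cells (1.56 ± 0.14). Colonocytes had 9 of 18 brakes higher and 5 lower against the other epithelial subclasses, where 37.9% and 37.2% of all genes were called. Ccng2 (4.62 ± 0.21, edgeR adjusted p = 6.1e-06) and Cdkn1c (2.71 ± 0.16) were among the higher, and Trp53, which encodes p53, was lower (−2.95 ± 0.15).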

How the data were processed

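Each library's deposited matrix holds raw UMI counts per gene and cell barcode, made with Cell Ranger on mm10; the submitters' processing notes give version 8.0.0 and the file headers 7.0.0. The labels name both a V3 and a v2 kit. No expression value was normalized by the authors.

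Here, cells with at least 200 genes and under 20% mitochondrial UMIs were kept, and the highest Scrublet scores, 0.8% per 1000 barcodes, were removed (302 and 702 cells). Libraries held 76622643 and 94204110 UMIs in 6597 and 9611 barcodes. Cells were clustered with scanpy 1.11.5 and leidenalg 0.10.2 (2000 variable genes, 30 components, 15 neighbours, resolution 1). Of the genes, 150 cell cycle genes, 73 histone genes, and mitochondrial, ribosomal, haemoglobin, immunoglobulin and sex-linked genes were held out. In subclusters, so were the 300 genes most correlated with the members. Holding out histone and correlated genes, scoring a class by its best marker list, the rule that 50% of cells hold 2 markers and the merging of fibroblasts with muscle cells and pericytes as stromal were decided after clusters were seen. Genes that vary with the members stayed in the clustering of classes.

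UMIs were summed per library and class (at least 20 cells in each library) and fitted with edgeR 4.0.16 (R 4.3.3; TMM, filterByExpr, quasi-likelihood, with the library as a block because its classes share a source), with 18 sums and 8 residual degrees of freedom for classes. Subclass fits had 6, 6 and 10 sums. SE is the log2 difference over the square root of F. The script was tested on simulated data. DESeq2 1.42.0, other filters and other clusterings were alternatives. Intervals are exact Clopper-Pearson at 95%, and the floor is 3 counts. The named genes were up to 5 per phase with the largest difference among those called with the same sign in both libraries, 8 reference members in every class and, for the other lists, the 3 with the smallest adjusted p. The members and lists were chosen with earlier results of these data known. UMIs of pseudogene rows of the members (at most 43) were left out. Promoter words were matched to RefSeq sequences of GRCm38.p6; Mcm4, Gins2, Ccne2, Ccna2, Aurkb, Tpx2 and Kif20a were not matched.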

Additional observations from a re-analysis of the deposited data

How the results depend on the processing

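Over all alternatives, 221 of 253 counts of members called stayed within the limits set. The S-phase shares of classes stayed within the SD of the 2 libraries in 81 of 99 cases, and the shares of cells in 83 of 108. In each total, 18 cases came from leaving out a library. With 2 libraries these always lie within that SD, so they test nothing. For the S-phase share the SD was 21.7 percentage points in mast and 24.5 in stromal cells, so the limit was wide there. Of the rest of these, 311 moved, 124 lost and 19 gained significance, and 8 reversed. Leaving out a library could be fitted as a test in no class (9 sums leave no residual degrees of freedom), so it was not run for counts. It is given for shares as the range over the libraries, and for log2 differences it is the value in the library that was left. The replicate block was kept in the main fit because same-numbered sums come from the same library.

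Counts of members depended on the tool and the block. With DESeq2, lower members numbered 2 in B cells (4 with edgeR), 12 in epithelial against lymphoid cells (27), 15 in monocytes (26), 2 in naive T cells (6) and 0 in macrophages (1). Higher ones numbered 6 in phagocytes against neutrophils (10), 19 in CD4 T cells (32) and 0 in macrophages (1). With no replicate block, 1 member was lower in B cells, 15 were lower and 0 higher in epithelial against lymphoid cells, and macrophages had 0 in either direction. On plain CPM, B cells had 1 lower, plasma against lymphoid cells 2 higher (8), epithelial against lymphoid cells 0 higher (1), phagocytes against neutrophils 24 higher, and macrophages 2 higher and 0 lower. With no filter on low counts, B cells had 9 lower, epithelial cells 0 lower (1) and macrophages 2 higher.

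With cell cycle genes left in the clustering, B cells had 3 higher (5) and 16 lower, stromal cells 21 lower (32), macrophages 0 higher and 13 lower (1), CD4 T cells 1 higher, naive T cells 3 lower and NK and innate lymphoid cells 9 lower (21). In CD4 T cells Rrm1 (1.09 to −0.49), Plk1 (1.79 to −0.55), Ccnb1 (1.67 to −0.75), Bub1b (1.63 to −0.33) and Birc5 (1.62 to −1.01) reversed, and Ccne1 in monocytes went from −1.81 to 0.12. With at least 500 genes per cell 7 members were lower in B cells, and with no doublets removed 9 in macrophages. The cause of these changes was not tested. On plain CPM Cdc20 (0.77 to −0.10) and Pcna (0.10 to −0.78) reversed in plasma against lymphoid cells.

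Shares are means over the libraries. The S-phase share of lymphoid cells, 35.0% with an SD near 0, moved by more than that SD under 8 alternatives but stayed between 34.9% and 36.6%. It was 34.9% with no doublets removed, with the automatic Scrublet threshold, with at least 500 genes per cell and with cell cycle genes left in. It was 35.0% with under 10% mitochondrial UMIs and at a Leiden resolution of 0.5, 36.6% with each member scaled to the same total over classes and 35.6% without the most abundant member of each phase, Pcna and Mki67. With each member scaled so, it became 37.7% in plasma (30.8%) and 61.8% in endothelial cells (75.1%). Without Pcna and Mki67 it became 34.2% in plasma and 62.5% in phagocyte cells (59.0%). Phagocytes had 54.5% both with no doublets removed and with the automatic threshold, and neutrophils 39.8% (52.2%) with no doublets removed. B cells (64.5%) had 70.9% with at least 500 genes and 73.7% with cell cycle genes left in, and plasma cells 32.5% with these left in.

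The share of cells with G2/M UMIs follows the depth and minimum used. With at least 1 UMI in place of 2 it was 41.1% in lymphoid (20.9%), 37.6% in plasma (22.8%), 26.6% in epithelial (15.6%), 44.4% in mast (24.4%), 26.0% in B (6.73%), 22.4% in phagocyte (5.14%), 16.3% in endothelial (2.05%), 15.7% in stromal (1.14%) and 15.5% in neutrophil cells (1.89%). With at least 3 it was 15.4%, 2.44%, 1.78%, 0.673% and 0.0575% in lymphoid, B, phagocyte, stromal and neutrophil cells, and at 1000 UMIs per cell 15.1%, 2.49%, 2.20%, 0.435% and 0.330%. With no doublets removed it was 2.54% in neutrophils and 2.11% in stromal cells, which had 2.19% with the automatic threshold and 0.526% with under 10% mitochondrial UMIs, at a resolution of 0.5 and with cell cycle genes left in.

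With 2 libraries of 1 treatment and no untreated sample, no difference here can be tied to colitis. Members at a few UMIs per class, as in endothelial, mast and B cells, limit what these sums can show, and genes of 3′ libraries cannot be compared with each other by level. Class names rest on rebuilt clusters.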
